A study of Mus musculus with 27 samples.

Results

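Genes encoding transcription factors of the macrophage lineage were followed here across total RNA, RNA recovered with an antibody against the RNA-binding protein HuR, and RNA recovered with control IgG. The 9 genes were picked by symbol, with earlier results of these data known, from the 55483 genes of the counts table, and all 9 were present. They are Spi1, Cebpa, Runx1, Fli1, Klf2, Maf, Mitf, Nfatc1 and Myc. The choice refers to 1 measurement, the fall of Maf RNA under TM7nox, so the comparison of LPS with TM7nox against LPS in RNA is described for the 9 genes without a test. For Maf no test is given wherever RNA of LPS or TM7nox cells enters, since those libraries served to choose it, or where treatments are compared in anti-HuR libraries, whose values deviate together with those of the RNA libraries of the same number.

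The cells were RAW264.7, a mouse macrophage-like tumour line. They were kept for 6 h with DMSO (the vehicle), with LPS at 1 µg/ml plus DMSO (called LPS here), or with LPS at 1 µg/ml plus TM7nox at 10 µM. LPS is a bacterial cell wall component sensed by the receptor Tlr4, and TM7nox is a small molecule known as an inhibitor of HuR binding to RNA. No allele or strain difference separates the groups: all libraries come from the same line, about 30 M cells per sample. Each treatment has 4 total RNA libraries and 4 anti-HuR libraries, numbered 1 to 4, and 1 IgG library, in each case replicate 3. The labels do not say whether the numbered samples were separate cultures, so the p-values measure the spread between these samples, which may be technical. Samples of the same number deviated together, but the main tests leave the number out. Fits with the number as a block are given as alternatives.

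As background, a macrophage's identity is held by a small set of DNA-binding proteins. Spi1 (PU.1) opens myeloid enhancers, Cebpa and Runx1 act with it early in the myeloid lineage, and Fli1 is an ETS factor related to Spi1. Maf and Mitf are leucine-zipper factors of mature macrophages, and Mitf and Nfatc1 drive osteoclast genes, a fate that RAW264.7 cells can take. Klf2 is a zinc-finger factor that restrains inflammatory gene expression, and Myc drives growth. HuR, encoded by Elavl1, binds stretches rich in U, often in the 3′ UTR of an mRNA, and many short-lived mRNAs carry such stretches together with the pentamer AUUUA.

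The U-richest 30 bases of the 3′ UTR are given for 8 genes, because U-rich sequence is what HuR is known to bind and the 8 genes differ widely in it. They were read from the GRCm39 genome with the canonical transcript of GENCODE M39, on the strand of the gene and from 5′ to 3′, with U written as T. Capitals mark runs of at least 5 U.
Fli1: TTTTTggTTTTTTTTTgTTTTTTTTTTTTT
Mitf: acTTTTTTTTcTTTTTTTTTTTTTcTTTTT
Runx1: ttttatttgtgtttggTTTTTgTTTTTatt
Myc: TTTTTTTTatgcttcccatcTTTTTTcttt
Cebpa: ttttatttggtcttttgttttgttttggtt
Klf2: tgcttcgTTTTTatacgacTTTTTTTTaat
Maf: ttttattttctgaaattggaaactaTTTTT
Spi1: tggcaccTTTTTgtatattgaatgcTTTTT
The windows lie at chr9:32334228-32334257 (Fli1, minus strand), chr6:97995999-97996028 (Mitf, plus strand), chr16:92402071-92402100 (Runx1, minus strand) and chr15:61861947-61861976 (Myc, plus strand). The others lie at chr7:34820906-34820935 (Cebpa, plus strand), chr8:73075142-73075171 (Klf2, plus strand), chr8:116411423-116411452 (Maf, minus strand) and chr2:90946002-90946031 (Spi1, plus strand). All are in the 3′ UTR of the gene named.

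The Fli1 window holds 27 U in 30 bases and the Mitf window 26, against 16 for Spi1 and 17 for Maf. Nfatc1, whose sequence is not printed, has a window with 28 U, the highest of the 9, and more U there than 97.7% of genes with a 3′ UTR of like length. Among genes whose 3′ UTR length is within 20% of its own, the Fli1 window had more U than 97.1% and the Mitf window more than 88.8%. For Maf the share was 13.6% and for Spi1 51.4%. Over the whole 3′ UTR, U made up 36.3% in Myc and 36.1% in Fli1, but 19.3% in Spi1, against a median of 29.2% in 10980 coding genes. AUUUA, searched on the transcript strand with overlaps counted, occurred 14 times in the 4189 bases of Runx1, 7 times in Mitf, 4 times in Fli1, 3 times in Maf, 2 times each in Nfatc1 and Myc and 1 time in Klf2. It did not occur in the 362 bases of Spi1 or the 1430 bases of Cebpa. Of all 3′ UTRs, 73.5% hold at least 1 AUUUA, and of those as long as that of Cebpa 82.8% do. A longer annotated Maf transcript has a 3′ UTR of 4316 bases with 7 AUUUA. These matches describe the letters in 1 annotated transcript per gene, and which 3′ ends the cells used was not measured.

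On GRCm39 the genes lie at chr2:90912562-90946101 (Spi1), chr7:34818718-34821353 (Cebpa), chr16:92398354-92623037 (Runx1), chr9:32333500-32454157 (Fli1) and chr8:73072726-73075502 (Klf2). The others are at chr8:116409632-116434579 (Maf), chr6:97783950-97998323 (Mitf), chr18:80649266-80756295 (Nfatc1) and chr15:61857227-61862223 (Myc). Klf2 overlaps Eps15l1 on the other strand, and because it is not stated whether counting used the strand, reads of these genes may not be told apart. The other genes overlap predicted genes on the other strand, for which the same holds. Fli1 also overlaps 5 predicted genes on its own strand, which counting by strand would not separate.

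Total RNA libraries held 2.73 to 28.3 M counts (the shallowest was DMSO replicate 1), anti-HuR libraries 19.8 to 41.4 M and IgG libraries 8.87 to 24.5 M. Mitochondrial counts made up 12.1% to 22.4% of RNA libraries, 0.559% to 1.86% of anti-HuR libraries and 5.31% to 6.13% of IgG libraries. In RNA their share was lowest with LPS alone within each replicate number. Its part in the results was not tested. Levels are counts-per-million values (CPM) with 1 TMM scaling over all 27 libraries, and TMM is a factor that evens out composition between libraries. Of 9 macrophage markers, 8 were above 1 CPM in every RNA group (Mertk was below), with a summed level of 3373 to 6983 CPM. Of 6 osteoclast markers 4 were above 1 CPM, with a sum of 25.1 to 89.7 CPM over the RNA libraries. Neutrophil markers summed to at most 0.176 CPM in DMSO and 1.64 to 3.60 CPM with LPS, mostly from S100a8, and 0.167 to 0.49 CPM with TM7nox. They were thus higher with LPS than in the other treatments, as Maf was. B cell markers summed to at most 0.36 CPM in DMSO, 1.83 to 4.03 CPM with LPS and 1.66 to 4.53 CPM with TM7nox, mostly from Pax5. Endothelial markers summed to 1.44 to 6.42 CPM over the RNA libraries, and T cell, mast cell, erythroid, fibroblast and epithelial markers to at most 0.642 CPM each. The part of these markers in the results was not tested. Elavl1 itself was at 90.4 ± 17.2 CPM in RNA of DMSO cells, 111 ± 15.7 with LPS and 94.2 ± 10.3 with TM7nox (SD, n = 4).

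Recovery with anti-HuR divided the 9 genes. Fli1, Runx1, Maf and Mitf mRNA were 15.9- to 34.2-fold higher in anti-HuR libraries than in total RNA of DMSO cells, Nfatc1 6.14-fold and Myc 4.98-fold higher, and Spi1 was lower. Cebpa and Klf2 did not pass the test in DMSO cells. In all, 7 of 9 genes passed an adjusted p of 0.05, against 70.4% of the 14311 genes tested, so the share alone does not set them apart; their median log2 difference was 2.62, against 0.04 over all genes tested.

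**Figure D1:**
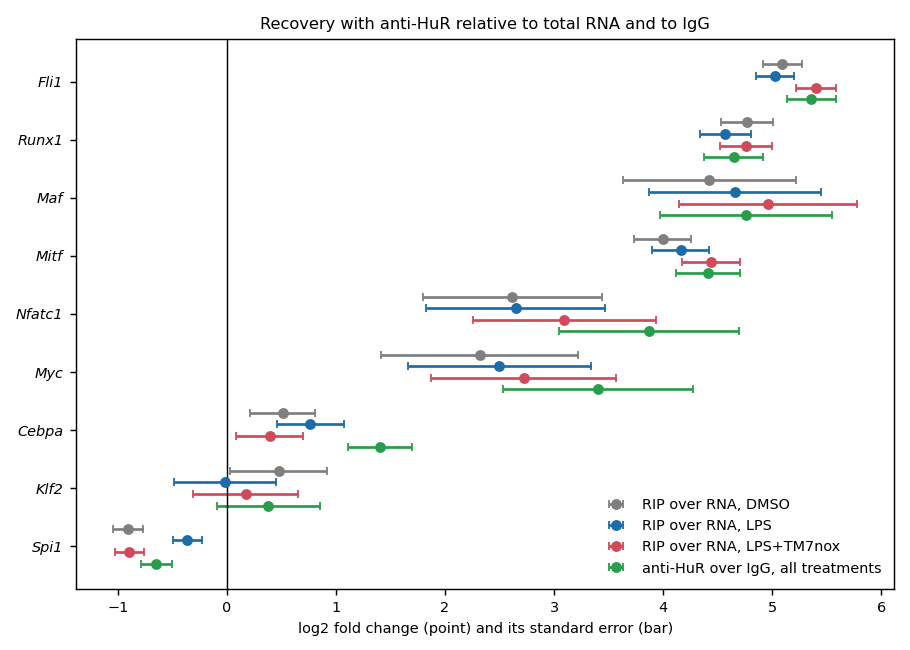
Log2 fold change (x axis, point) with its standard error (bar) for each gene, in anti-HuR over total RNA for each treatment (4 libraries each) and in anti-HuR over IgG across treatments. Fli1, Runx1, Maf and Mitf lie between 4.00 and 5.40, and Spi1 lies below 0 in all 4 comparisons.

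Fli1 was at 26.3, 33.2, 36.6 and 36.7 CPM in the 4 RNA libraries of DMSO cells. In the anti-HuR libraries of the same treatment it was at 1065, 944, 1268 and 945 CPM, and in IgG at 28.4 CPM. Every anti-HuR library stood more than an order of magnitude above every RNA library and above IgG. The difference from RNA was 5.09 on the log2 scale (SE 0.18, adjusted p = 5.15e-17, edgeR quasi-likelihood test with Benjamini-Hochberg adjustment).

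Runx1, which pairs with Cbfb to bind DNA in blood cell progenitors and their offspring, was at 41.3, 45.0, 46.0 and 39.8 CPM in RNA of DMSO cells. With anti-HuR it was at 898, 1246, 1094 and 1061 CPM, and with IgG at 43.8 CPM. The 4 anti-HuR libraries were again far above the RNA libraries, and IgG was within their RNA range. The log2 difference was 4.77 (SE 0.24, edgeR adjusted p = 6.11e-15).

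Mitf was at 73.4, 77.4, 45.7 and 42.4 CPM in RNA of DMSO cells and at 1068, 1077, 685 and 615 CPM with anti-HuR. In both assays replicates 1 and 2 were higher than replicates 3 and 4, while the 2 assays did not overlap. The log2 difference was 4.00 (SE 0.26, edgeR adjusted p = 9.24e-13).

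Maf, a factor that acts at macrophage enhancers and also drives Il10, varied widely between libraries of 1 group. In RNA of DMSO cells it was at 7.28, 0.857, 14.0 and 13.9 CPM, and with anti-HuR at 70.1, 13.3, 297 and 344 CPM. Replicate 2 was lowest in both assays, and its anti-HuR value lay below the RNA values of replicates 3 and 4, so the groups overlapped. Within each replicate number anti-HuR exceeded RNA, by 3.25 to 4.62 on the log2(CPM + 0.1) scale. The fitted log2 difference was 4.42 (SE 0.79, edgeR adjusted p = 2.43e-05).

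Nfatc1, which drives osteoclast formation downstream of calcineurin, was at 206, 112, 43.9 and 42.4 CPM in RNA of DMSO cells and at 1071, 677, 225 and 188 CPM with anti-HuR. Its spread between replicate numbers was as wide as the gap between the assays, and the groups overlapped. The fitted log2 difference was 2.62 (SE 0.82, edgeR adjusted p = 0.00654). Myc was at 19.9, 5.50, 1.21 and 1.10 CPM in RNA and at 70.5, 20.5, 4.21 and 2.22 CPM with anti-HuR, a fitted log2 difference of 2.32 (SE 0.90, edgeR adjusted p = 0.0248). Within each replicate number Myc was also higher with anti-HuR, by 0.95 to 1.88 on the log2(CPM + 0.1) scale, each below the fitted value. The Myc call was lost without anti-HuR DMSO replicate 1 (0.90, adjusted p = 0.346) and without RNA DMSO replicate 3 (1.90) or 4 (1.89, adjusted p = 0.0806 for both). It was also lost by DESeq2 (2.00, adjusted p = 0.0522) and with only the groups compared (2.15, adjusted p = 0.0956), and held in 10 of 15 alternatives. Without RNA DMSO replicate 1 it was 3.25.

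Spi1 was the one gene of the 9 that was lower with anti-HuR. It was at 258, 225, 255 and 220 CPM in RNA of DMSO cells and at 148, 99.8, 112 and 105 CPM with anti-HuR, without overlap, and at 202 CPM with IgG. The log2 difference was -0.91 (SE 0.14, edgeR adjusted p = 1.78e-06). Cebpa differed by 0.51 (SE 0.30, edgeR adjusted p = 0.128) and Klf2 by 0.48 (SE 0.44, adjusted p = 0.345). With the replicate number as a block, Cebpa passed (0.48, adjusted p = 0.0476).

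The recovery of these genes in DMSO cells was much alike in replicates 1 and 2 alone and in replicates 3 and 4 alone. Fli1 was at 5.17 and 4.98, Runx1 at 4.75 and 4.73, Mitf at 3.94 and 3.96 and Spi1 at -0.84 and -1.05. The values lay further apart for Maf, at 3.99 and 4.61, Nfatc1, at 2.62 and 2.33, and Myc, at 2.12 and 1.57. All of these genes passed in both subsets. Over all genes, 7432 of 15015 passed with replicates 1 and 2 alone and 9991 of 14165 with replicates 3 and 4 alone.

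Much the same order was seen with LPS. There 7 of the 8 genes other than Maf passed, against 63.7% of all genes tested, with log2 differences of 5.03 for Fli1, 4.57 for Runx1, 4.16 for Mitf, 2.65 for Nfatc1 and 2.5 for Myc. Maf was at 4.66, given without a test. Nfatc1 was at 3.38 without RNA LPS replicate 1 and at 2.06 without anti-HuR LPS replicate 1, and Myc at 3.19 without RNA LPS replicate 1. Cebpa passed at 0.76 (SE 0.31, edgeR adjusted p = 0.0338) and Spi1 at -0.36 (SE 0.13, adjusted p = 0.0208), and Klf2 was at -0.02 (SE 0.47, adjusted p = 0.971). The count fell to 4 of the 8 without anti-HuR LPS replicate 1, where 8715 of 14774 genes passed. There Myc was at 1.84 (edgeR adjusted p = 0.0688), Cebpa at 0.72 (adjusted p = 0.0848) and Spi1 at -0.33 (adjusted p = 0.0683). The calls of Cebpa and Spi1 here were also lost under several other settings, including RLE scaling for Spi1 (-0.19, adjusted p = 0.22). Without anti-HuR LPS replicate 2 or 3 Spi1 had an adjusted p of 0.0826 or 0.0502. Leaving out 1 of 5 further libraries, RNA LPS replicates 2, 3 and 4 and anti-HuR LPS replicates 2 and 4, left Cebpa with an adjusted p between 0.0553 and 0.111.

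With TM7nox beside LPS, 6 of the 8 genes other than Maf passed, against 69.9% of all genes tested. The log2 differences were 5.40 for Fli1, 4.76 for Runx1, 4.44 for Mitf, 3.09 for Nfatc1, 2.72 for Myc and -0.90 for Spi1. Maf was at 4.96, again without a test. In this treatment no anti-HuR library of Fli1, Maf, Runx1, Mitf, Nfatc1 or Myc overlapped the RNA libraries, a pattern shown in that direction by 30.4% of all genes. Cebpa was at 0.39 (SE 0.31, edgeR adjusted p = 0.264) and passed only without RNA LPS+TM7nox replicate 1 among the libraries left out (0.77, adjusted p = 0.0272), and Klf2 was at 0.17 (SE 0.48, adjusted p = 0.764). Under RLE scaling in place of TMM, the median of all genes in anti-HuR over RNA moved from 0.04 to 0.19 in DMSO, from -0.06 to 0.11 in LPS and from -0.09 to 0.13 in LPS with TM7nox, so these differences are relative to a centre that depends on the scaling.

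Against IgG, fitted over the 12 anti-HuR and 3 IgG libraries with the treatment as a term, 8 of 9 genes passed, against 68.1% of 14973 genes tested. Fli1 was 5.36 higher on the log2 scale, Maf 4.76, Runx1 4.65, Mitf 4.41, Nfatc1 3.87, Myc 3.40 and Cebpa 1.40, and Spi1 was 0.65 lower (-0.65, edgeR adjusted p = 0.000592). Klf2 differed by 0.38 (SE 0.47, adjusted p = 0.493). These 8 calls held in all 19 alternatives run for this comparison. With 1 IgG library per treatment, the IgG spread rests on 3 libraries of replicate number 3. Set against the anti-HuR libraries of replicate 3 alone, Nfatc1 was 2.29 higher, Myc 2.18 and Cebpa 0.80. In that setting Fli1 was at 5.58, Maf at 5.24, Runx1 at 4.53, Mitf at 4.22, Spi1 at -0.56 and Klf2 at -0.28. The same 8 genes passed there by edgeR, against 9025 of 13030 genes tested.

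For Maf and Runx1 the IgG levels lay close to the means of total RNA. Maf was at 8.14, 65.1 and 3.47 CPM with IgG in DMSO, LPS and LPS with TM7nox, against RNA means of 8.99, 72.9 and 4.14 CPM. Runx1 was at 43.8, 49.4 and 59.3 CPM with IgG, against RNA means of 43.0, 51.1 and 61.1 CPM. Each single IgG library thus stood near the RNA mean of its treatment for these genes, and the anti-HuR mean was 22.3- to 34.9-fold the IgG value for Maf and 24.2- to 26.5-fold for Runx1. In RNA replicate 3, the number of the IgG libraries, Maf was at 14.0, 81.0 and 6.49 CPM, above its IgG values. Anti-HuR replicate 3 of Maf was at 297, 2170 and 167 CPM, above the anti-HuR means behind these folds. For some other genes IgG was further from the RNA mean, which covers 4 replicate numbers that differ. Nfatc1 was at 49.0, 21.1 and 19.3 CPM with IgG, against RNA means of 101, 65.4 and 37.8 CPM and 43.9, 16.2 and 17.1 CPM in RNA replicate 3. Myc was at 0.91 CPM with IgG in DMSO, against an RNA mean of 6.93 CPM and 1.21 CPM in replicate 3, and Cebpa at 1.87 CPM with IgG in LPS, against a mean of 4.27 CPM. The lowest count behind an IgG value was 5, for Klf2 in the LPS with TM7nox library.

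**Figure D2:**
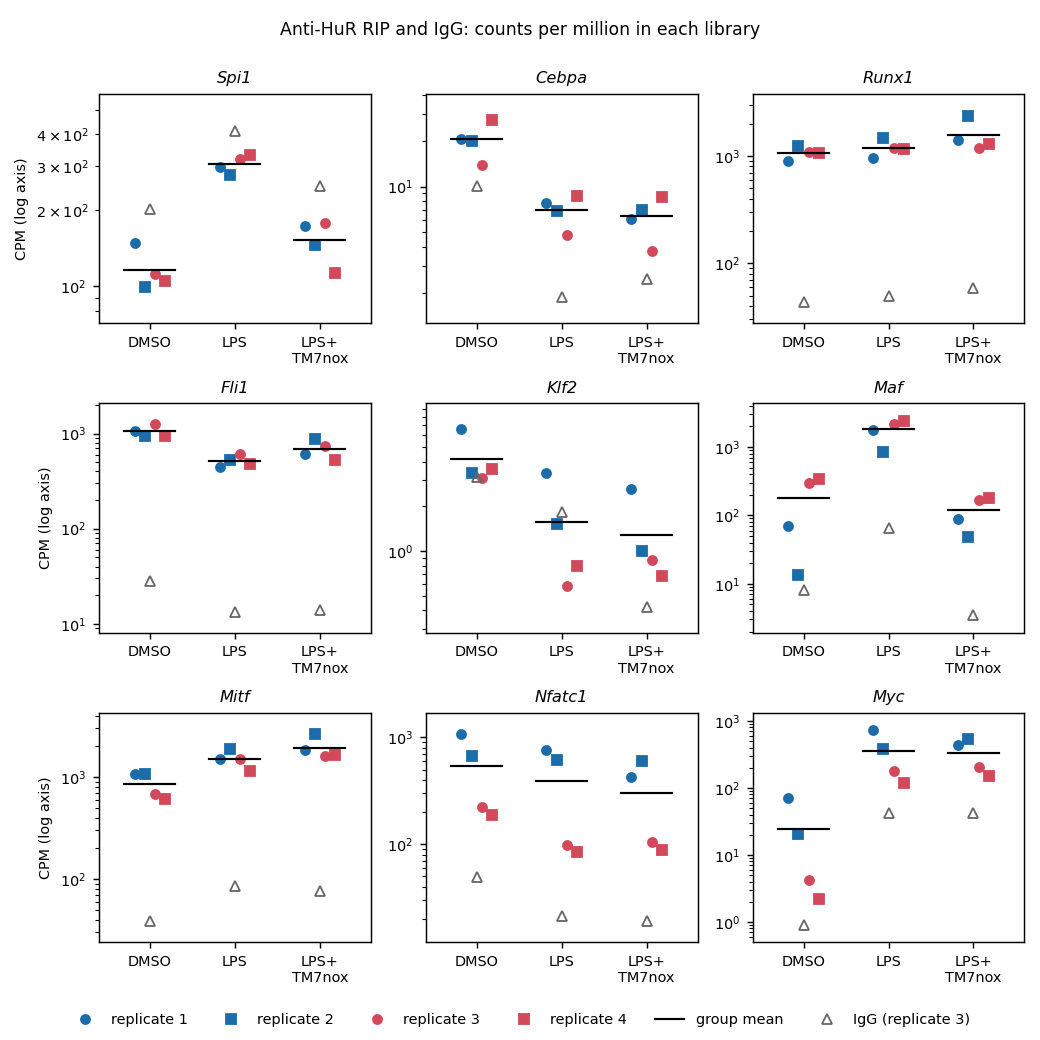
CPM in each anti-HuR library (circles and squares, coloured by replicate number), the group mean (line) and the single IgG library (open triangle) for 9 genes, on log axes that differ between panels. IgG lies far below anti-HuR for Fli1, Runx1, Maf and Mitf, and above every anti-HuR library of its treatment for Spi1.

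LPS changed the RNA of 5 of the 8 genes other than Maf, against 42.0% of 12369 genes tested. Myc and Spi1 were higher, as were 20.2% of all genes, and Cebpa, Fli1 and Klf2 were lower, as were 21.7%. The fold change was 11.7 for Myc, and Maf, without a test, was 7.79-fold higher. All 9 genes passed the filter on low counts in every comparison. In bulk RNA, a smaller number of cells of a kind and less RNA per cell cannot be told apart.

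**Figure D3:**
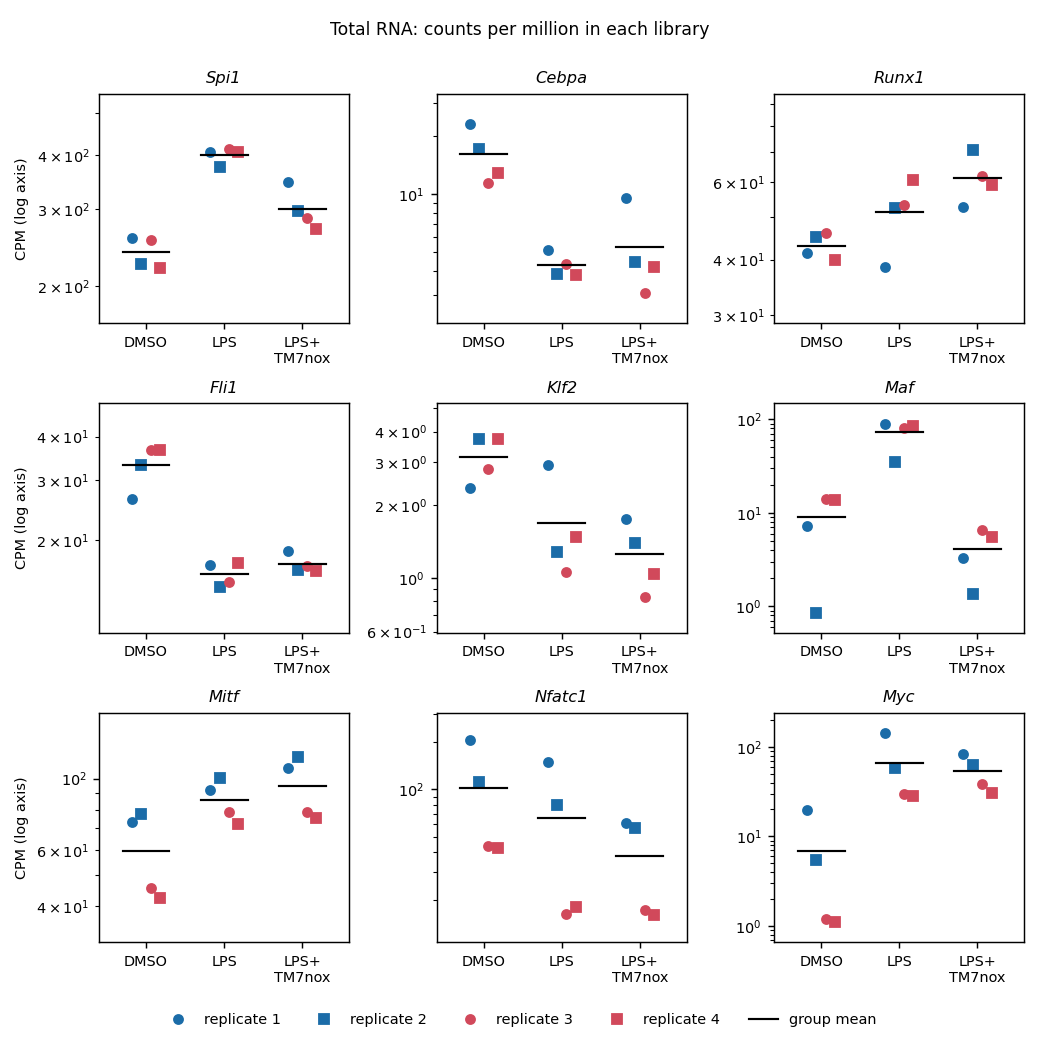
CPM in each total RNA library (circles and squares, coloured by replicate number) and the group mean (line) for 9 genes, on log axes that differ between panels. Maf is between 35.4 and 90.2 CPM in the 4 LPS libraries and at most 14.0 CPM in the others.

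Spi1 was at 258, 225, 255 and 220 CPM in DMSO and at 407, 377, 412 and 408 CPM with LPS. The 4 LPS libraries were all higher than the 4 DMSO libraries. Of all genes, 38.5% had LPS and DMSO libraries that did not overlap in 1 direction or the other. The log2 change was 0.68 (SE 0.12, edgeR adjusted p = 0.000368).

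Cebpa, a factor needed for early myeloid differentiation, was at 23.1, 17.1, 11.5 and 12.9 CPM in DMSO and at 5.12, 3.84, 4.34 and 3.78 CPM with LPS. The groups did not overlap, and Cebpa fell by 1.96 on the log2 scale (SE 0.34, edgeR adjusted p = 0.000346). Fli1 went from 26.3, 33.2, 36.6 and 36.7 CPM to 17.0, 14.7, 15.2 and 17.2 CPM. Its groups did not overlap either, and it fell by 1.11 (SE 0.12, edgeR adjusted p = 6.11e-06).

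Klf2 was low in RNA of LPS cells, at 2.91, 1.28, 1.06 and 1.48 CPM, after 2.35, 3.73, 2.82 and 3.73 CPM in DMSO. LPS replicate 1 lay within the DMSO range, so the groups overlapped. Klf2 fell by 0.99 (SE 0.37, edgeR adjusted p = 0.0427), and this call held in 5 of 15 alternatives. It was lost without replicate 2, 3 or 4 of either group, with changes from -0.81 to -1.05 and adjusted p-values from 0.0602 to 0.127.

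Maf went from 7.28, 0.857, 14.0 and 13.9 CPM to 90.2, 35.4, 81.0 and 84.9 CPM. Replicate 2 was lowest in both groups, and the lowest LPS library was above the highest DMSO library. The log2 difference was 2.96 (SE 0.63), a description, since these LPS libraries served to choose Maf. Myc rose from 19.9, 5.50, 1.21 and 1.10 CPM to 145, 58.6, 29.9 and 28.2 CPM. Its lowest LPS value was above its highest DMSO value although replicate 1 was highest and replicates 3 and 4 lowest in each group, and the change was 3.55 (SE 0.86, edgeR adjusted p = 0.00403). It was 2.80 without RNA LPS replicate 1 and 4.58 without RNA DMSO replicate 1, and passed in both.

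Runx1, Mitf and Nfatc1 did not pass. Runx1 was at 41.3, 45.0, 46.0 and 39.8 CPM in DMSO and at 38.5, 52.3, 53.0 and 60.7 CPM with LPS, a change of 0.19 (SE 0.13, edgeR adjusted p = 0.286). Mitf was at 73.4, 77.4, 45.7 and 42.4 CPM and then 92.1, 101, 78.7 and 72.2 CPM, higher with LPS within each number but overlapping as groups. By library totals without TMM, Mitf in replicate 1 was at 126 CPM in DMSO and 122 CPM with LPS. Its change of 0.47 (SE 0.23, edgeR adjusted p = 0.112) passed with the replicate number as a block (0.51, adjusted p = 0.000645), a fit in which 52.4% of all genes passed.

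Nfatc1 was at 206, 112, 43.9 and 42.4 CPM in DMSO and at 148, 79.1, 16.2 and 18.1 CPM with LPS. Each LPS library was below the DMSO library of its number, while the groups overlapped. Its change of -0.68 (SE 0.73, edgeR adjusted p = 0.5) became -0.94 with the block (adjusted p = 0.000909). Within replicates 3 and 4 alone it was -1.34 (adjusted p = 1.04e-06) and within replicates 1 and 2 alone -0.51 (adjusted p = 0.446).

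The other genes kept their direction with LPS in both subsets. Maf, without a test, was 4.39 higher in replicates 1 and 2 and 2.57 higher in replicates 3 and 4. Myc (3.10 and 4.64), Cebpa (-2.18 and -1.59) and Fli1 (-0.94 and -1.19) passed in both, where 13.4% and 58.7% of all genes passed. Spi1 was at 0.67 (edgeR adjusted p = 0.0786) in replicates 1 and 2 and at 0.78 (adjusted p = 5.39e-05) in replicates 3 and 4, Klf2 at -0.59 (adjusted p = 0.656) and -1.37 (adjusted p = 0.00229), and Runx1 at 0.05 (adjusted p = 0.939) and 0.40 (adjusted p = 0.00803).

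With anti-HuR, 6 of the 8 genes other than Maf passed for LPS against DMSO, against 44.7% of 13614 genes tested. Spi1 went from 148, 99.8, 112 and 105 CPM to 296, 277, 321 and 330 CPM, a log2 change of 1.36 (SE 0.17, edgeR adjusted p = 1.2e-05). Maf went from 70.1, 13.3, 297 and 344 CPM to 1796, 845, 2170 and 2404 CPM, a difference of 3.30 (SE 0.72), given without a test. Both genes were higher in each LPS library than in any DMSO library, in a comparison where 41.0% of all genes had groups that did not overlap.

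Myc changed by 3.81 in the anti-HuR libraries (SE 0.88, edgeR adjusted p = 0.00233), Cebpa by -1.57 (SE 0.29, adjusted p = 0.000457) and Fli1 by -1.07 (SE 0.17, adjusted p = 0.000118), all without overlap between the groups. The Myc value was 5.20 without anti-HuR DMSO replicate 1 and 3.14 without anti-HuR LPS replicate 1, and passed in both. Mitf changed by 0.76 (SE 0.24, edgeR adjusted p = 0.0178), with adjusted p-values of 0.0697, 0.0855 and 0.077 without LPS replicate 2, DMSO replicate 3 and DMSO replicate 4. Klf2 changed by -1.41 (SE 0.50, edgeR adjusted p = 0.0299), and this was lost without DMSO replicate 1 (-1.13, adjusted p = 0.0935) or LPS replicate 2, 3 or 4 (adjusted p from 0.0502 to 0.0797), and was -2.16 without LPS replicate 1. Runx1 changed by 0.12 (SE 0.22, edgeR adjusted p = 0.692). Nfatc1 changed by -0.51 (SE 0.74, adjusted p = 0.604), and by -0.78 with the block (adjusted p = 0.00219), where 59.3% of all genes passed.

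A change in the anti-HuR libraries can follow the change in RNA, so the change of anti-HuR over RNA was tested as an interaction. LPS changed it for 0 of the 8 genes other than Maf by edgeR, also under each of the 23 alternatives, DESeq2 among them, and for 0.0419% of 14311 genes. Before adjustment 1 of these 8 genes had p under 0.05, against 7.27% of all genes. That gene was Spi1, at 0.55 (SE 0.19, unadjusted p = 0.0079, adjusted p = 0.533), with DESeq2 giving an adjusted p of 0.0815 and the block 0.147. In the same number pairs, anti-HuR minus RNA for Spi1 was -0.80, -1.17, -1.19 and -1.06 in DMSO and -0.46, -0.45, -0.36 and -0.30 with LPS on the log2(CPM + 0.1) scale. All 4 LPS pairs were thus higher than the DMSO pairs, as they also were for Mitf and Myc, a pattern shown in the higher direction by 6.27% of genes. The fitted changes of Mitf (0.17, SE 0.33) and Myc (0.18, SE 1.19) were below their standard errors and changed sign over the alternatives. By library totals without TMM, the LPS and DMSO pairs of Mitf and Myc overlapped, while those of Spi1 did not.

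**Figure D4:**
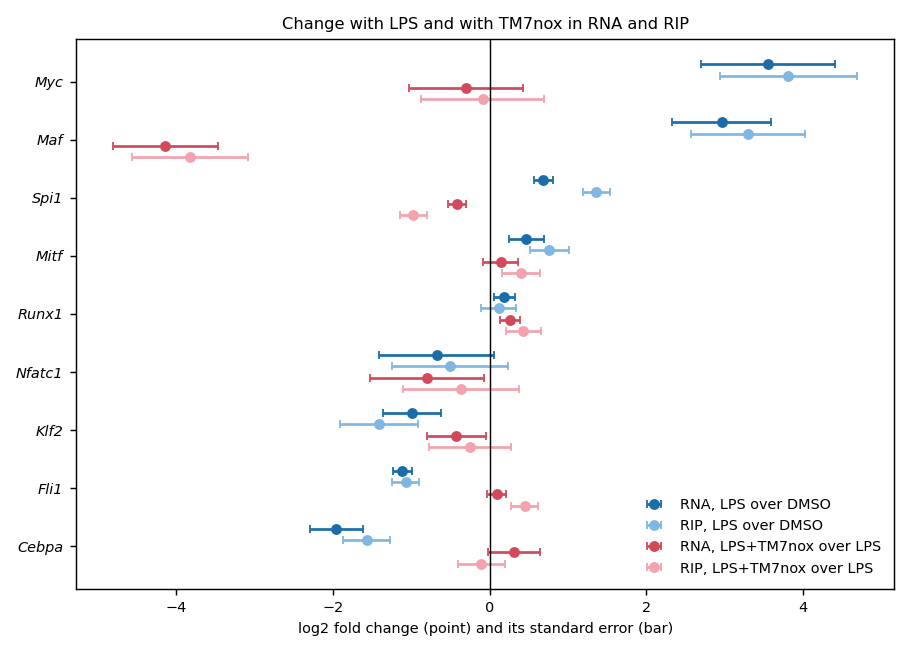
Log2 fold change (x axis, point) with its standard error (bar) for LPS over DMSO and for LPS with TM7nox over LPS, each in total RNA and in anti-HuR libraries (4 libraries per group). The RNA and anti-HuR points of a gene lie near each other, with Spi1 at 0.68 in RNA and 1.36 with anti-HuR for LPS over DMSO.

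Under TM7nox, the RNA values of Maf and Spi1 lay below those with LPS alone, and those of the other 7 genes overlapped. This comparison chose the genes and is given without a test: 13.8% of all genes passed in it, and for 21.4% the groups did not overlap. Maf was at 90.2, 35.4, 81.0 and 84.9 CPM with LPS and at 3.26, 1.36, 6.49 and 5.47 CPM with TM7nox, a log2 difference of -4.14 (SE 0.67). Spi1 was at 407, 377, 412 and 408 CPM and then at 347, 297, 286 and 270 CPM, a difference of -0.42 (SE 0.12). Every TM7nox library of these 2 genes was below every LPS library.

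For the others the differences were 0.31 for Cebpa (SE 0.33), 0.26 for Runx1 (SE 0.13), 0.14 for Mitf (SE 0.22), 0.09 for Fli1 (SE 0.12), -0.30 for Myc (SE 0.72), -0.42 for Klf2 (SE 0.37) and -0.80 for Nfatc1 (SE 0.73). Most are near their standard error. Without RNA LPS replicate 1 the Nfatc1 value was 0.01 and the Klf2 value -0.01. Nfatc1 was at 61.0, 57.0, 17.1 and 15.9 CPM with TM7nox, lower than with LPS in replicates 1 and 2 and close to it in replicates 3 and 4. Myc was at 82.2, 62.9, 38.0 and 30.3 CPM, within the range of its LPS libraries. In replicates 1 and 2 alone Maf differed by -4.79 and Spi1 by -0.28, and in replicates 3 and 4 alone by -3.77 and -0.54, while Myc was at -0.49 and 0.25.

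Set against DMSO, cells with LPS and TM7nox had 6 of 8 tested genes past the threshold, against 47.3% of all genes, and Maf was not tested. Runx1 was at 52.6, 70.7, 61.9 and 59.0 CPM with TM7nox, above every DMSO library on the TMM scale, and was 0.45 higher (SE 0.13, edgeR adjusted p = 0.013). By library totals without TMM, Runx1 was at 66.2 to 81.0 CPM with TM7nox and 56.3 to 70.7 CPM in DMSO, which overlap. Myc was 3.25 higher (SE 0.85, adjusted p = 0.00599; 4.28 without RNA DMSO replicate 1) and Mitf 0.61 higher (SE 0.23, adjusted p = 0.0377). The Mitf call was lost without RNA LPS+TM7nox replicate 1 or 2 or DMSO replicate 3 or 4 (0.47 to 0.59, adjusted p from 0.0631 to 0.111).

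On the lower side in the same comparison, Cebpa, at 9.54, 4.45, 3.06 and 4.17 CPM with TM7nox, fell by 1.64 (SE 0.34, edgeR adjusted p = 0.0011). Fli1, at 18.6, 16.4, 16.9 and 16.4 CPM, fell by 1.02 (SE 0.12, adjusted p = 1.13e-05). Klf2, at 1.75, 1.39, 0.833 and 1.03 CPM, fell by 1.41 (SE 0.37, adjusted p = 0.00648). All 3 were below every DMSO library, as were 18.4% of all genes. In replicates 1 and 2 alone, where 18.0% of all genes passed, the calls of Fli1 (-0.79, edgeR adjusted p = 0.0507), Klf2 (adjusted p = 0.351), Runx1 (0.49, adjusted p = 0.208) and Mitf (0.55, adjusted p = 0.0843) were lost, and Nfatc1 passed (-1.46, adjusted p = 0.0261).

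Spi1 differed from DMSO by 0.27 (SE 0.12, edgeR adjusted p = 0.0785) without overlap between the groups on the TMM scale. It passed by edgeR with the block (adjusted p = 0.016) and without RNA DMSO replicate 1 (0.33, adjusted p = 0.032). It also passed by DESeq2 (0.30, adjusted p = 0.025). By library totals without TMM, the Spi1 groups overlapped, with a mean of 351 CPM against 367 CPM in DMSO. Nfatc1 was at -1.48 (SE 0.74, edgeR adjusted p = 0.12) and passed with the block (-1.43, adjusted p = 3e-05), where 58.0% of all genes passed. Maf, at -1.17 (SE 0.63), overlapped with DMSO. The LPS comparison and this one share their DMSO libraries.

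In the anti-HuR libraries, Spi1 was the 1 gene of 8 tested that passed for TM7nox beside LPS against LPS, where 16.2% of all genes passed. It went from 296, 277, 321 and 330 CPM to 173, 146, 179 and 113 CPM. All TM7nox libraries were below all LPS libraries and the log2 change was -0.97 (SE 0.17, edgeR adjusted p = 0.0014), with -0.85 (adjusted p = 0.0944) in replicates 1 and 2 alone and -1.05 (adjusted p = 0.023) in replicates 3 and 4 alone. With the replicate block 3 genes passed: Spi1, Fli1 (0.44, adjusted p = 0.0211) and Runx1 (0.40, adjusted p = 0.0465), while 33.6% of all genes passed in that fit. Without it Fli1 was at 0.45 (SE 0.17, adjusted p = 0.0859) and Runx1 at 0.43 (SE 0.22, adjusted p = 0.21).

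Fli1 was at 444, 527, 606 and 480 CPM with anti-HuR in LPS and at 610, 869, 733 and 528 CPM with TM7nox, higher within each number but overlapping as groups. Mitf was at 1491, 1873, 1515 and 1147 CPM and then 1844, 2651, 1593 and 1661 CPM, a change of 0.40 (SE 0.24, edgeR adjusted p = 0.279). Cebpa, Klf2, Nfatc1 and Myc changed by -0.10 (SE 0.30), -0.24 (SE 0.52), -0.37 (SE 0.74) and -0.09 (SE 0.78), each close to its standard error or below it. Maf, without a test, was at 89.1, 48.3, 167 and 179 CPM with TM7nox after 1796, 845, 2170 and 2404 CPM with LPS, a difference of -3.82 (SE 0.74).

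The change of anti-HuR over RNA between TM7nox with LPS and LPS is likewise a description. Spi1 lay between -1.25 and -0.68 in the 4 pairs with TM7nox and between -0.46 and -0.30 with LPS alone, without overlap, and its fitted difference was -0.53 (SE 0.19). The other 8 genes overlapped, with fitted differences from -0.37 for Cebpa (SE 0.44) to 0.44 for Nfatc1 (SE 1.10). For Maf the value was 0.30 (SE 0.98). Of all genes, 6.37% showed no overlap and 0.00699% passed in this comparison, and the LPS pairs are shared with the interaction above. Without RNA LPS+TM7nox replicate 1 or anti-HuR LPS+TM7nox replicate 1, 2 genes did not overlap, as did 10.7% of all genes.

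Several of the genes differed between replicates 1 and 2 and replicates 3 and 4, and the labels do not say what the numbers stand for. The level of Nfatc1 was 3.57- to 7.56-fold higher in replicates 1 and 2 in the 6 groups, and Myc 2.12- to 14.2-fold higher, with no overlap in any group. Mitf was 1.26- to 1.71-fold higher, without overlap in all groups but anti-HuR LPS. Maf went the other way: replicates 3 and 4 were 1.32- to 7.68-fold higher, without overlap in all groups but RNA LPS. Klf2 was 3.53-fold higher in replicates 1 and 2 in anti-HuR LPS, 2.34-fold in anti-HuR LPS with TM7nox and 1.69-fold in RNA LPS with TM7nox, and Cebpa 1.65-fold in RNA DMSO and 1.93-fold in RNA LPS with TM7nox, each without overlap, and both overlapped in their other groups. Non-overlap of 2 libraries with 2 is common: it was shown by 34.9% to 51.7% of all genes tested in the 6 groups, and by 4 to 7 of the 9 genes. This split was noticed in the values, so it is given without a test.

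**Figure D5:**
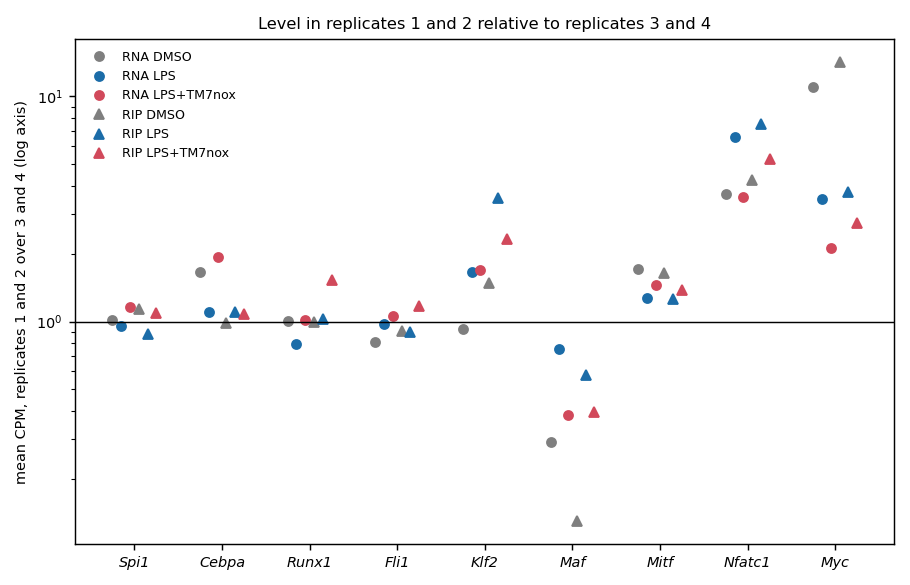
Mean CPM of replicates 1 and 2 divided by that of replicates 3 and 4 (log axis) for each gene, in 3 RNA groups (circles) and 3 anti-HuR groups (triangles). Nfatc1 and Myc lie above 2.12 in every group and Maf lies below 1.

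Per kilobase of annotated exon, the scale on which genes can be compared, Spi1 was the most abundant of the 9 in RNA, at 79.3 ± 6.54 CPM per kb in DMSO (SD, n = 4). Nfatc1 followed at 13.3 ± 10.1, Fli1 at 7.58 ± 1.11, Cebpa at 6.13 ± 1.98 and Mitf at 5.89 ± 1.80, neighbours whose spreads overlap. Runx1 was at 3.40 ± 0.23, Myc at 2.54 ± 3.26, Klf2 at 1.48 ± 0.32 and Maf at 0.97 ± 0.67 CPM per kb. With LPS, Spi1 stayed first at 133 ± 5.41, followed by Myc at 23.9 ± 20.0, while Nfatc1, Mitf and Maf were at 8.56 ± 8.18, 8.47 ± 1.27 and 7.86 ± 2.73 CPM per kb, within their spreads of each other. In anti-HuR libraries of LPS cells the first was Maf, at 194 ± 74.0 CPM per kb, then Mitf at 148 ± 29.3, Myc at 129 ± 101, Fli1 at 118 ± 16.1 and Spi1 at 101 ± 7.99, and these neighbours overlap within their SD.

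A log2 CPM profile most like that of Maf was shown by 5 genes over the 12 RNA libraries, among 8275 genes with a mean of at least 5 CPM. They were Plcb3 (Pearson r = 0.94), Nfix (0.93), Ctsc (0.93), Xpnpep1 (0.92) and Atp10d (0.91). Without RNA DMSO replicate 1, the shallowest library, they ranked 2, 4, 5, 7 and 10 in the order given, so neither the first gene nor the set of 5 held. The points share treatment and library, so r is a description with no p. Ctsc, a lysosomal protease, was at 55.0 ± 15.3 CPM in DMSO, 290 ± 54.4 with LPS and 50.3 ± 8.88 with TM7nox (SD, n = 4). Plcb3, a phospholipase C, was at 32.1 ± 3.96, 46.3 ± 3.93 and 33.9 ± 4.19 CPM, a narrower range than that of Maf.

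Further gene lists show how the known partners and targets of these factors moved. The lists were chosen with earlier results of these data known, so their counts and calls are a description and no independent support. Of the 63 calls named from them 22 were lost with replicates 1 and 2 alone. For TM7nox against LPS, 15 of the 18 named calls were lost there. Of all genes tested, 52.4% passed with LPS and 25.0% with TM7nox under the replicate block, 13.4% and 1.35% with replicates 1 and 2 alone, and 58.7% and 27.9% with replicates 3 and 4 alone, and the list counts under these settings are to be read against those shares. Other macrophage transcription factors were counted as a list of 49 genes, of which 41 were tested in RNA. With LPS 18 rose and 12 fell by edgeR, against 20.2% and 21.7% of all genes tested, with Cebpd (4.19) and Stat3 (2.49) the largest rises and Tfeb (-2.12) and Runx2 (-2.08) the largest falls on the log2 scale. Under TM7nox beside LPS, 4 rose and 12 fell against LPS, against 7.37% and 6.40% of all genes, with the repressors Bhlhe40 (1.90) and Bhlhe41 (1.59) higher and Id1 (-2.12) and Cebpd (-1.64) lower. The block gave 8 and 15, replicates 1 and 2 alone 1 and 2, and replicates 3 and 4 alone 8 and 15. With LPS, replicates 1 and 2 alone gave 12 and 5. In anti-HuR over RNA of DMSO cells, 24 of 42 were higher and 7 lower, against 37.0% and 33.4% of all genes, among them Cebpb (5.33) and Bhlhe41 (4.16) on the higher side and Cebpe (-1.93) and Cebpd (-1.27) on the lower. The median was 0.63, against 0.04 over all genes tested.

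Targets of Spi1, Runx1, Cebpa and Fli1 in myeloid cells, 22 genes, held 9 that rose and 3 that fell with LPS, beside 20.2% and 21.7% of all genes. The Fc receptors Fcgr1 (3.06) and Fcgr2b (2.28) rose, and the receptors Csf1r (-1.71) and Tlr4 (-1.12) fell. With TM7nox, 1 rose (Tlr4, 0.57) and 6 fell, beside 7.37% and 6.40% of all genes, with Fcgr1 (-1.26) and Fcgr3 (-1.22) furthest. In all 10 passed with the block, 1 with replicates 1 and 2 alone and 12 with replicates 3 and 4 alone. The Tlr4 rise (edgeR adjusted p = 0.0349) was lost in 7 of 15 alternatives, 6 of them the omission of a single library: RNA LPS replicate 1, 3 or 4 or RNA LPS+TM7nox replicate 2, 3 or 4 (0.45 to 0.68 over the alternatives). Of the 22, 17 were lower in anti-HuR over RNA of DMSO cells and 1, Tlr4 (2.10), was higher, beside 33.4% lower and 37.0% higher of all genes, with a median of -1.54, while Fli1, Runx1, Maf and Mitf were far above 0.

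Targets of Maf in macrophages were few at this level: 8 of 15 were tested. With LPS 1 of the 8 passed, against 42.0% of all genes: the anti-inflammatory cytokine Il10, which rose by 7.38. With LPS 4 of the 8 passed with the replicate block, against 52.4% of all genes, and 2 of 9 tested without RNA DMSO replicate 1. With TM7nox, the complement gene C1qb fell by 3.35 (edgeR adjusted p = 0.017) and Il10 by 1.82, beside 6.40% lower of all genes, and the C1qb call was lost without RNA LPS replicate 3 (-4.36 to -2.93 over the alternatives). Relative to RNA, anti-HuR libraries of DMSO cells had Igf1 (3.05) higher and Mrc1 (-2.14) and 1 other gene lower, beside 37.0% higher and 33.4% lower of all genes.

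Osteoclast genes driven by Nfatc1 and Mitf, 14 genes of which 11 were tested, had 3 that rose and 2 that fell with LPS, and 8 that passed with the block, against 52.4% of all genes. The same shares of all genes as above, 20.2% and 21.7%, apply to this list and the next ones with LPS, 7.37% and 6.40% with TM7nox, and 37.0% and 33.4% in anti-HuR over RNA of DMSO cells. Mmp9 (4.38) and Tcirg1 (1.22), a proton pump subunit, rose, and Tnfrsf11a (-1.54), the receptor for RANKL, and Ostm1 (-0.93) fell. With TM7nox, Tcirg1 (1.03), Clcn7 (0.98) and 1 other gene rose and Mmp9 (-1.69) fell. With the block 7 passed, with replicates 1 and 2 alone 0 by edgeR and with replicates 3 and 4 alone 7. In anti-HuR over RNA of DMSO cells, Tnfrsf11a (3.67) and Ostm1 (2.06) were higher and 7 were lower, Mmp9 (-2.24) and Ctsk (-2.03) the furthest.

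Myc partners and antagonists, listed together with the Myc relative Mycn, had 12 of 13 names in the counts table and 11 tested. Of these 11, 3 rose and 5 fell with LPS. Mxd1 (5.64), an antagonist that competes for Max, and Max itself (1.04) rose, and Mxd4 (-1.69) and Mxi1 (-1.51) fell. With TM7nox 1 rose and 2 fell, and 6 passed with the block. Mxd4 rose by 1.26 (edgeR adjusted p = 0.0313), Mxd1 fell by 1.65 and Mycn fell by 0.55 (adjusted p = 0.0152). The Mxd4 call was lost without RNA LPS replicate 1 or 2 or RNA LPS+TM7nox replicate 3 or 4, and the Mycn call without replicate 4 of either group. Over the alternatives Mxd4 ranged from 1.01 to 1.46 and Mycn from -0.62 to -0.50. Relative to RNA of DMSO cells, 3 were higher with anti-HuR and 2 lower, with Mxd1 at 3.35 and Mycn at -1.71.

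Growth targets of Myc went both ways with LPS: of 24 tested, 5 rose and 6 fell. Ccnd2 (4.69), a cyclin, and Odc1 (2.79), an enzyme of polyamine synthesis, rose, and Cad (-1.02) and Polr1b (-0.91) fell. With TM7nox 7 of the 24 passed against LPS, each of them lower, beside 6.40% lower of all genes, with Dkc1 (-0.84) and Nolc1 (-0.76) furthest, and 12 passed with the block. With replicates 1 and 2 alone 0 passed by edgeR, and with replicates 3 and 4 alone 17, each of them lower. In anti-HuR over RNA of DMSO cells 4 were higher and 16 lower, among them Ccnd2 (4.75) and Nolc1 (-2.25). Of 5 Klf2 targets 3 were tested: Itgb7 rose with LPS by 0.87 and 1 other gene fell, and with TM7nox Itgb7 rose by a further 0.95 (edgeR adjusted p = 0.017), a call lost without RNA LPS replicate 2, 3 or 4 (0.78 to 1.19 over the alternatives). In anti-HuR over RNA of DMSO cells, Thbd (2.58) was higher and Itgb7 (-1.45) lower.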

How the data were processed

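RAW264.7 total RNA, anti-HuR and IgG libraries (27 in all) were made with a stranded kit per the labels' protocols. What the authors deposited is a single table of whole-number read counts, not normalized, per the file headers. The submitters' processing notes list FastQC 0.11.9, STAR, HTSeq, DESeq2 and GRCm39; an annotation release and a strand setting for the counting were not given in the sources used here. No molecular identifiers are stated, so counting error is the only error that depth describes.

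The counts were analysed in R 4.3.3 with edgeR 4.0.16: filterByExpr with a minimum count of 10, TMM scaling, and the quasi-likelihood test with Benjamini-Hochberg adjustment over all genes tested, at 0.05. RNA and anti-HuR libraries were fitted apart for treatments (12 each), together (24) for anti-HuR over RNA and its change, and anti-HuR with IgG (15) with treatment as a term. The fits were tested on simulated data. Alternatives were DESeq2 1.42.0, RLE scaling, no filter, a replicate block, replicates 1 and 2 or 3 and 4 alone, only the groups compared, and each library left out. Same-numbered libraries deviated together in every pair of groups (correlation 0.143 to 0.506), so the numbers pair the samples, though the labels do not say what they stand for. The main tests carry no term for the numbers. A gene that did not pass in them may pass with the block, as Mitf and Nfatc1 did with LPS in RNA.

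The members and gene lists were chosen with earlier results of these data known. Named list genes are up to 2 called genes with the largest change in each direction among those with a mean of at least 1 CPM. 3′ UTRs and coordinates are from GENCODE M39 on GRCm39, and 93.2% of the table's identifiers matched it. No 2 libraries of a group agreed within sampling noise.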

Additional observations from a re-analysis of the deposited data

Results flagged for a closer look

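Of 54 groups of 4 libraries examined (9 genes in 6 groups), 4 held 1 library that stood apart from the other 3, judged by its gap to the nearest library as a share of the group's range. Chance gives this in about 1 in 20 groups. Maf in RNA of LPS cells was at 35.4 CPM in replicate 2, against 81.0 to 90.2 CPM in the others. Spi1 in the same treatment was at 377 CPM in replicate 2, against 407 to 412 CPM. Klf2 with anti-HuR in DMSO cells was at 6.59 CPM in replicate 1, against 3.12 to 3.55 CPM, and with TM7nox at 2.62 CPM in replicate 1, against 0.683 to 1.01 CPM. What sets these libraries apart was not tested.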

How the results depend on the processing

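Of 99 pairs of gene and comparison, 25 changed sign in at least 1 alternative, and none of these had passed a test (those whose libraries chose the genes were given none). They include, for TM7nox against LPS in RNA, Myc (-0.60 to 0.47), Cebpa (-0.16 to 0.64) and Nfatc1, which ranged from -1.14 to 0.01 when each library was left out (0.01 without RNA LPS replicate 1). With LPS in RNA, 3 genes passed in replicates 1 and 2 alone and 8 in replicates 3 and 4 alone in place of 5. The shares of all genes were 13.4% and 58.7% in place of 42.0%. With replicates 1 and 2 alone, 3 genes passed in RNA of TM7nox with LPS against DMSO in place of 6, against 18.0% of all genes. For TM7nox against LPS with anti-HuR, 0 passed in place of 1, against 5.59% of all genes. There DESeq2 gave 2 and the replicate block 3, against 20.9% and 33.6% of all genes. Genes that did not overlap in RNA between TM7nox and LPS numbered 2, but 5 with replicates 1 and 2 and 4 with replicates 3 and 4 alone, where 45.8% and 65.4% of all genes did not overlap in place of 21.4%. For the change of anti-HuR over RNA in that comparison they numbered 1, but 2 with replicates 1 and 2, 3 with replicates 3 and 4, and 1 to 2 when each library was left out, beside 37.0% and 38.9% of all genes in the 2 subsets in place of 6.37%. Subsets of 2 libraries a group separate more easily, so these counts cannot be set against that over 4. With LPS, 4 to 7 of the 8 genes other than Maf passed in anti-HuR over RNA when each library was left out. Over all genes, between 8386 of 14753 and 9253 of 14816 passed in those fits. Among the lists, the replicate block raised the calls with LPS from 5 to 8 for osteoclast genes and from 1 to 4 for Maf targets (2 without RNA DMSO replicate 1). With TM7nox it raised them from 3 to 6 for Myc partners, from 4 to 7 for osteoclast genes and from 7 to 12 for Myc growth targets. Beyond the genes named with it, the block changed no other call among the 9 genes. Over all genes, replicates 1 and 2 alone gave 1668 calls and replicates 3 and 4 alone 7349 in place of 5190 for LPS in RNA, 2246 and 7925 in place of 5850 for TM7nox with LPS against DMSO, and 3392 and 5537 in place of 6090 for LPS with anti-HuR. For TM7nox against LPS the 1704 calls in RNA became 3091 with the block, 168 with replicates 1 and 2 and 3489 with replicates 3 and 4, and the 2212 with anti-HuR became 4577, 789 and 1070. The change of anti-HuR over RNA by LPS had 6 calls, 50 with the block, 67 by DESeq2, 49 without a filter, 0 and 13 in the 2 subsets and 11 without RNA DMSO replicate 1; that by TM7nox had 1, and at most 5. The cause of these shifts was not tested. Depth limits Klf2, at 0.423 to 6.59 CPM, with 5 counts in 1 IgG library. Levels and non-overlaps are given on the TMM scale and depend on it. By library totals without TMM, Mitf with anti-HuR in LPS averaged 908 CPM in place of 1506 CPM. Non-overlap in RNA was then lost, among others, for Myc with LPS against DMSO and for Runx1 and Spi1 with TM7nox against DMSO.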
